A study of Macaca mulatta with 20 samples.

Results

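Interleukins, tumour necrosis factor (TNF) family ligands and receptors, the receptors of interferons and of transforming growth factor beta (TGF-beta), and the TRAF, JAK, STAT and SOCS proteins that act behind them were examined as 1 module of cytokine communication between blood cells. Its members were all probes of the array whose platform gene symbol starts with IL and a digit, TNFRSF, TNFSF, TNFAIP, IFNAR, IFNGR, TGFBR, TRAF and a digit, STAT and a digit, JAK and a digit, or SOCS, without IL7R. The rule uses names and no measured value. It gave 47 of the 7303 probes of the table. They stand for 43 of the 5236 genes that the table names, and 4 of these 43 genes have 2 probes each.

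RNA came from 2 T cell populations, helper and cytotoxic, and from B cells and monocytes, all separated from the blood mononuclear cells of 5 untreated adult female rhesus macaques. The animals held dominance ranks 1 (high) to 5 (low). Each came from its own social group, so effects of rank, of the individual and of the group it lived in cannot be told apart. Each population of each animal was hybridised once to a human Illumina array, and the array columns carry the marker names CD4, CD8, CD14 and CD20. The cytotoxic T cell and B cell arrays of the rank 4 animal were left out, which leaves 18 of 20 arrays: 5 of helper T cells, 5 of monocytes, 4 of cytotoxic T cells and 4 of B cells.

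Cytokines are secreted or membrane-bound signals of immune cells. Interleukin and interferon receptors of the class that pairs with JAK kinases phosphorylate STAT proteins, which enter the nucleus as transcription factors, and the SOCS proteins are induced by the same signals and restrain them. TNF receptors and the receptors of IL-1 and IL-17 work instead through TRAF adaptors, largely towards NF-kB, and TGF-beta receptors are kinases that act on SMAD proteins. In blood, monocytes are a main source of inflammatory and B cell supporting cytokines, and T cells rely on the cytokine receptors that share the chain IL2RG.

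The 18 arrays carried the markers of their labels, and arrays of each cell type carried some markers of other types as well. Averaged over 6 T cell markers, levels lay between 11.06 and 11.97 log2 in helper and cytotoxic arrays and between 7.76 and 7.81 in monocytes. CD79B lay between 13.15 and 13.90 in B cells, and CD4 was higher in every helper array (8.22 to 8.85) than in every cytotoxic array (7.58 to 7.69). CD8A was at 13.84 to 14.36 in cytotoxic arrays. It was at 8.31 to 11.29 in helper arrays and 8.20 to 10.97 in B cells. CD8B was at 8.92 to 9.40 in cytotoxic arrays and at most 8.27 elsewhere. The 5 measured NK cell markers averaged 9.98 to 10.87 in cytotoxic and 8.24 to 9.53 in helper arrays. Among them, NCAM1 was at 9.98 to 11.19 in monocytes. The 5 measured monocyte markers averaged 12.69 to 13.59 in monocytes and at most 8.32 elsewhere. The 3 granulocyte markers (CSF3R, CAMP and MPO) averaged 11.31 to 12.09 in monocytes against at most 8.01 elsewhere. Of these, MPO alone was at only 8.19 to 8.40 in monocytes. In B cell arrays the T cell markers averaged 8.29 to 9.01. Among these, CD3D was at 9.41 to 11.17 there, and CD3E and LAT at most 7.84. The 2 arrays left out correlated with each other over all probes at 0.876 and with the other 18 at 0.148 to 0.193, and in the rank 4 B cell array CD79B was at 8.36.

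All levels are on the log scale of the authors, used as log2, on which every array has the same distribution with a median of 8.39. A level is thus relative to the other probes of the same array, and fewer cells of a type and less RNA per cell cannot be told apart. Of the 47 member probes, 23 had a mean under that median. Differences were taken from a linear model of all 7303 probes with the animal as a block (limma), and "passed" or "differed" means a Benjamini-Hochberg adjusted p under 0.05 over all probes. Differences are given with the standard error (SE) of the model and levels with the SD over arrays. A gene with 2 probes is described by its brighter probe.

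Most members differed between at least some of the 4 cell types, at the rate of the table as a whole. The F test over the 4 types called 31 of the 47 probes (66.0%), against 67.4% of all probes. Monocytes and lymphocytes lay furthest apart. The contrast of helper T cells with monocytes called 29 member probes (61.7%, background 61.5%), that of cytotoxic T cells with monocytes 32 (68.1%, background 59.3%) and that of monocytes with B cells 25 (53.2%, background 53.6%). The other contrasts had fewer calls: 10 probes between helper T cells and B cells (21.3%, background 25.2%), 10 between cytotoxic T cells and B cells (21.3%, background 24.9%) and 2 between helper and cytotoxic T cells (4.26%, background 2.64%). Of the last 2, 1 was higher in helper (background 1.2%) and 1 in cytotoxic T cells (background 1.44%).

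Against monocytes the calls ran both ways. Of the 29 with helper T cells, 15 were higher in helper T cells (31.9%, background 34%) and 14 in monocytes (29.8%, background 27.5%). Of the 32 with cytotoxic T cells, 15 were higher in cytotoxic T cells (31.9%, background 32.8%) and 17 in monocytes (36.2%, background 26.5%). The directions were uneven in the contrasts with B cells. All 10 probes called between helper T cells and B cells were higher in helper T cells, where over all probes 13.3% were higher in helper T cells and 11.9% in B cells. That count was 6 without rank 1, 5 without rank 2 and 6 without rank 3, with no share of all probes given for those fits. Of the 10 called between cytotoxic T cells and B cells, 9 were higher in cytotoxic T cells (12.8% of all probes were) and 1 in B cells (12.1%). Monocytes were higher in 17 of the 25 probes that differed from B cells (36.2% of the members, background 22.8%) and B cells in 8 (17.0%, background 30.8%). No member was higher in B cells than in each of the other 3 types, which held for 5.26% of all probes. The median difference over the 43 genes stayed between -0.08 and 0.04 log2 in the 6 contrasts, against -0.01 to 0.00 over all probes, close to 0 on both sides.

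**Figure D1:**
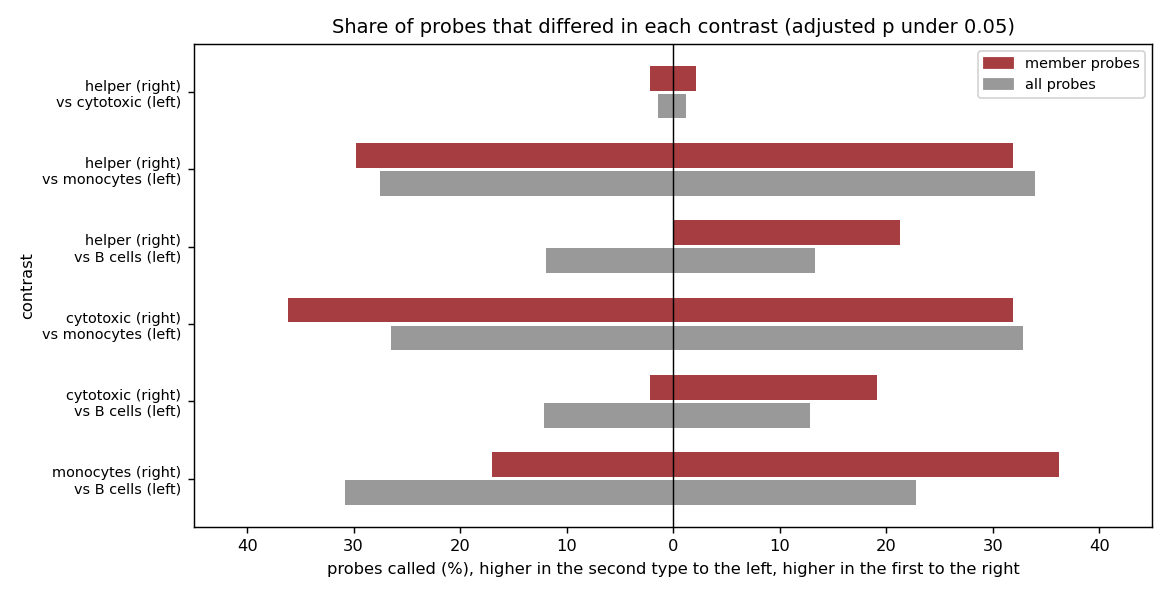
Share of probes called in each of the 6 contrasts (horizontal axis, percent), for the 47 member probes (red) and all 7303 probes (grey). Bars to the right count probes higher in the first type of the contrast and bars to the left those higher in the second. The member bar towards B cells is at 0 for helper T cells against B cells, where 10 probes lie on the helper side.

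**Figure D2:**
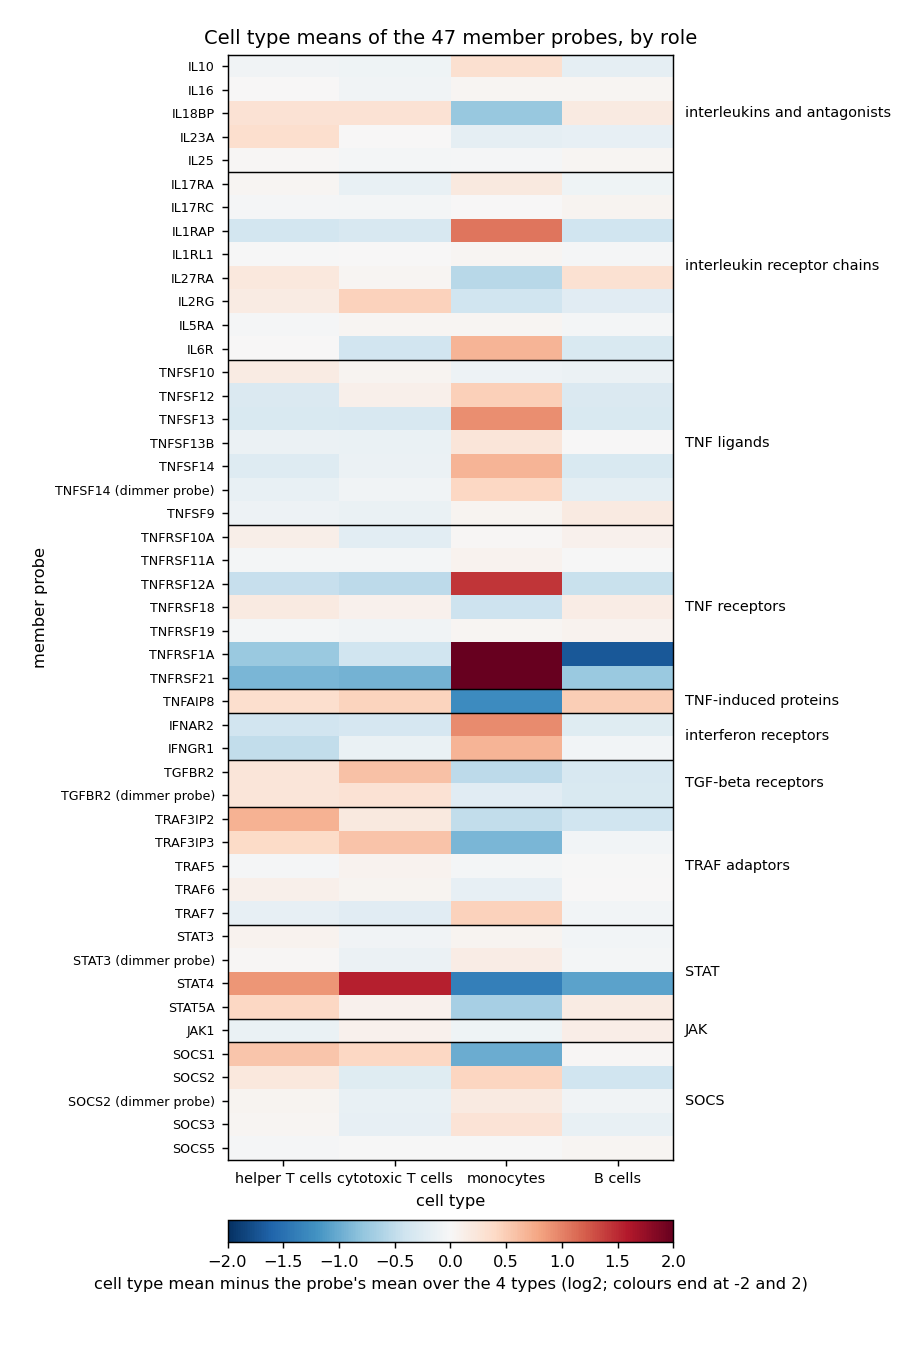
Cell type means of the 47 member probes (rows, grouped by role) in the 4 cell types (columns), shown as the difference in log2 from the mean of that probe over the types. The strongest colours are those of TNFRSF1A, TNFRSF21 and TNFRSF12A in monocytes and of STAT4 in cytotoxic T cells, and rows such as IL25, SOCS5 and TRAF5 stay near 0.

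Of 5 interleukin and antagonist genes 3 passed the F test (67.4% of all probes did), each with another pattern. IL16 and IL25 did not pass the F test, with means within 7.91 to 8.02 and 8.08 to 8.15. IL10, the anti-inflammatory interleukin, was at 8.57, 8.56, 8.08, 8.22 and 8.05 in the monocytes of ranks 1 to 5 and between 7.73 and 7.99 in all 13 lymphocyte arrays. The groups did not overlap, and monocytes exceeded helper T cells by 0.39 ± 0.08, cytotoxic T cells by 0.41 ± 0.09 and B cells by 0.51 ± 0.09 log2 (largest adjusted p = 0.00136). IL23A, a subunit of IL-23, was at 8.48, 8.37, 8.23, 8.74 and 8.26 in helper T cells and at most 7.93 in monocytes and 8.01 in B cells. It was higher in helper T cells than in monocytes by 0.51 ± 0.08 and than in B cells by 0.45 ± 0.09 (adjusted p = 0.000117 and 0.00204). Cytotoxic T cells held IL23A at 8.0, 8.33, 8.0 and 8.01 in ranks 1, 2, 3 and 5, and the difference from helper T cells did not pass.

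IL18BP, a secreted protein that binds IL-18 and blocks it, went the other way from IL10. Its levels were 9.12, 8.97, 9.30, 8.92 and 9.13 in helper T cells, 9.50, 8.90, 9.01 and 8.93 in cytotoxic T cells (ranks 1, 2, 3 and 5) and 8.86, 8.77, 8.85 and 9.40 in B cells. In monocytes it lay at 8.08, 8.14, 8.0, 7.94 and 8.04, below every lymphocyte array. Helper T cells exceeded monocytes by 1.05 ± 0.12, cytotoxic T cells did by 1.01 ± 0.13 and B cells by 0.90 ± 0.13 (largest adjusted p = 8.4e-05), and the 3 lymphocyte types did not pass the test against each other.

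Of 6 TNF ligand genes, 4 were higher in monocytes than in each lymphocyte type: TNFSF12, TNFSF13, TNFSF13B and TNFSF14. Of all probes 18.4% were. The median difference of the 6 genes was 0.55 log2 between monocytes and B cells, against -0.01 over all probes. TNFSF13, known as APRIL and a survival factor of antibody-producing cells, was at 8.86, 8.69, 9.22, 8.68 and 9.01 in monocytes and between 7.57 and 7.74 in all lymphocyte arrays. It was the only ligand of the module past the stricter criterion of enrichment, which asks for a difference of at least 1 log2 from each other type, and exceeded the nearest type, helper T cells, by 1.23 ± 0.08 (adjusted p = 2.57e-08, higher in 5 of 5 animals). TNFSF13B, known as BAFF and the related B cell survival factor, had a smaller difference, with 8.63, 8.75, 8.72, 8.58 and 8.60 in monocytes against at most 8.54 elsewhere, so that the groups only just did not overlap. Monocytes exceeded B cells by 0.24 ± 0.07 (adjusted p = 0.00658) and helper T cells by 0.36 ± 0.06.

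TNFSF14, known as LIGHT, varied more between animals within monocytes than any other ligand. Its monocyte levels were 9.10, 9.93, 7.82, 8.71 and 7.84 in ranks 1 to 5, a mean of 8.68 ± 0.892 (SD, n = 5), and its lymphocyte levels ran from 7.66 to 8.01. The monocyte arrays of ranks 3 and 5 thus lay within the range of the lymphocytes. Its second probe, at 8.16, 9.29, 7.64, 8.17 and 7.73, was also highest in rank 2 and lowest in ranks 3 and 5. The brighter probe passed against all 3 lymphocyte types, although against cytotoxic T cells the monocyte array was higher in 2 of 4 animals only, and the second missed the threshold against cytotoxic T cells. TNFSF12, known as TWEAK, was well above the median of the table in all types, with means of 9.28 ± 0.359 (SD) in helper and 9.65 ± 0.266 in cytotoxic T cells, 10.03 ± 0.522 in monocytes and 9.28 ± 0.411 in B cells.

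The 2 remaining TNF ligands were not monocyte genes. TNFSF10, known as TRAIL and an inducer of apoptosis, was higher in helper T cells than in monocytes by 0.26 ± 0.05 and than in B cells by 0.28 ± 0.06 (adjusted p = 0.000664 and 0.00232), with all its levels between 7.53 and 8.01. TNFSF9, a co-stimulatory ligand, was the only member higher in B cells than in another lymphocyte type. It stood at 8.15, 8.10, 8.54 and 8.27 in the B cells and 8.02, 8.02, 7.84 and 7.95 in the cytotoxic T cells of ranks 1, 2, 3 and 5, a difference of 0.31 ± 0.10 (adjusted p = 0.0304, 4 of 4 animals). Without the rank 3 animal that difference was -0.17 as cytotoxic minus B cells (adjusted p = 0.168), and it also missed the threshold without rank 1 or rank 5 (adjusted p = 0.0586 and 0.105).

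TNF receptors gave the largest differences of the module, all on the monocyte side. TNFRSF1A, the main receptor of TNF itself, was at 12.94, 12.95, 11.78, 12.67 and 10.92 in the monocytes of ranks 1 to 5. It lay at 8.57, 9.02, 8.31, 8.53 and 8.86 in helper T cells, at 9.08, 9.22, 8.60 and 9.11 in the cytotoxic T cells of ranks 1, 2, 3 and 5, and at 7.72, 7.86, 7.64 and 7.61 in B cells of the same ranks. Monocytes exceeded cytotoxic T cells by 3.21 ± 0.29, helper T cells by 3.59 ± 0.27 and B cells by 4.51 ± 0.29 log2 (largest adjusted p = 7.33e-07). Both T cell types also lay above B cells in every array, by 0.91 ± 0.29 in helper (adjusted p = 0.0363) and 1.29 ± 0.30 in cytotoxic T cells (adjusted p = 0.00588). TNFRSF1A was the only member lower in B cells than in each other type, which held for 2.37% of all probes. The helper difference missed the threshold without rank 1, 2 or 3 (adjusted p = 0.105, 0.16 and 0.0906), and without the block (adjusted p = 0.0592).

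TNFRSF21, a death domain receptor, had the smallest adjusted p of the F test in the module, 1e-09. Its monocyte levels were 10.92, 11.08, 12.08, 11.27 and 11.70, and all 13 lymphocyte levels lay between 7.77 and 8.20. Monocytes exceeded the nearest type, B cells, by 3.35 ± 0.17 (adjusted p = 3.82e-09, higher in 4 of 4 animals). TNFRSF12A, the receptor of TWEAK, was at 10.09, 10.45, 9.07, 9.88 and 9.26 in monocytes and between 7.74 and 7.95 in lymphocytes, a difference from B cells of 1.86 ± 0.19 (adjusted p = 2.62e-06). Within monocytes the 3 receptors did not follow 1 order of animals: TNFRSF1A and TNFRSF12A were lowest in ranks 3 and 5, and TNFRSF21 was highest in them.

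The other 4 TNF receptors had small or no differences. TNFRSF18, known as GITR and a co-stimulatory receptor of T cells, was lower in monocytes, at 7.58, 7.74, 7.57, 7.58 and 7.50, than in the lymphocytes, by 0.59 ± 0.11 against helper T cells, 0.46 ± 0.12 against cytotoxic T cells and 0.53 ± 0.12 against B cells (largest adjusted p = 0.00423). Its B cell levels of 7.70, 8.38, 7.97 and 8.56 overlapped with monocytes through the rank 1 array. TNFRSF10A, a receptor of TRAIL, TNFRSF11A, known as RANK, and TNFRSF19 did not pass the F test (adjusted p = 0.306, 0.426 and 0.236), with cell type means that spread over 0.33, 0.12 and 0.15 log2.

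**Figure D3:**
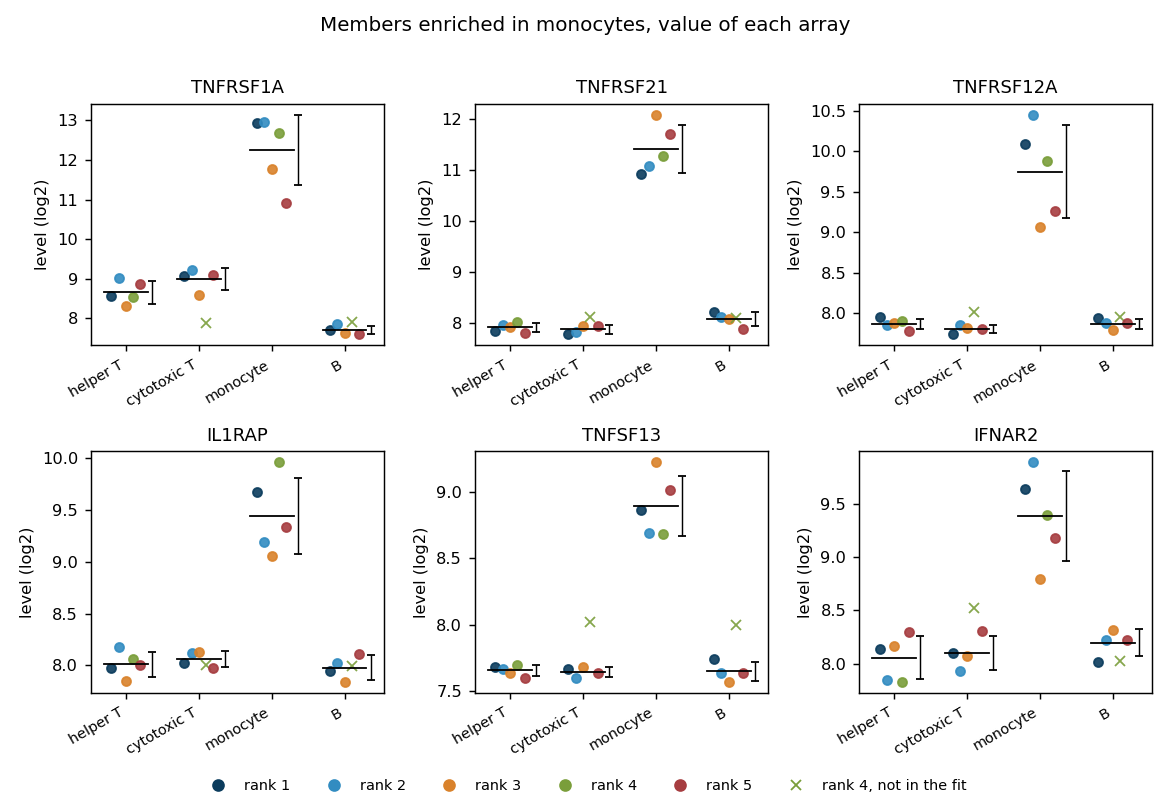
Level in log2 (vertical axes, each with its own range) of the 6 members enriched in monocytes, by cell type. Points are arrays coloured by the dominance rank of the animal, crosses the 2 arrays not in the fit, horizontal lines the means and bars the SD (n = 5 for helper T cells and monocytes, n = 4 for cytotoxic T cells and B cells). For each gene the monocyte points lie above every lymphocyte point of the fit.

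By the criterion of enrichment 6 members marked monocytes, TNFRSF1A, TNFRSF21, TNFRSF12A, IL1RAP, TNFSF13 and IFNAR2, and none marked another type. That is 12.8% of the member probes, against 5.01% of all probes in monocytes, 1.04% in B cells, 0.301% in cytotoxic and 0.11% in helper T cells. Leaving out any 1 animal gave 6 or 7 monocyte members and 0 in the other types, with no share of all probes given for those fits. With no minimum size, 13 members were higher in monocytes than in each lymphocyte type (27.7%, background 18.4%). These were the 6 above with IFNGR1, IL10, IL6R, TNFSF12, TNFSF13B, TNFSF14 and TRAF7. Of the granulocyte markers given above, CSF3R and CAMP were also high in these monocyte arrays (12.37 to 13.95) and MPO was not (8.19 to 8.40). Their part in the result was not tested.

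Among interleukin receptor chains, IL1RAP and IL6R were monocyte genes and IL27RA was lowest in monocytes. IL2RG was higher in both T cell types than in monocytes and B cells. IL1RAP, the accessory chain of the IL-1 receptor, was at 9.67, 9.19, 9.06, 9.96 and 9.34 in monocytes and between 7.84 and 8.18 in lymphocytes, and exceeded cytotoxic T cells, the nearest type, by 1.31 ± 0.12 (adjusted p = 1e-06). IL6R, the IL-6 binding chain, was at 9.24, 9.34, 8.71, 9.23 and 8.71 in monocytes, at 8.20, 8.34, 8.48, 8.39 and 8.50 in helper T cells and at most 8.13 in the other lymphocytes. Monocytes exceeded helper T cells by 0.66 ± 0.12 and cytotoxic T cells by 1.04 ± 0.13 (adjusted p = 0.000259 and 1.26e-05). Every helper array lay above every cytotoxic and B cell array, although neither of those differences passed the test.

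IL2RG, the common gamma chain shared by the receptors of IL-2, IL-7, IL-15 and others, was at 8.59, 8.53, 8.71, 8.51 and 9.03 in helper T cells and 8.85, 8.66, 8.99 and 9.39 in cytotoxic T cells of ranks 1, 2, 3 and 5. It was lower in monocytes, at 8.20, 8.25, 8.02, 8.09 and 8.03, and in B cells, at 8.11, 8.07, 8.53 and 8.42. The helper T cell and B cell groups overlapped through the rank 3 B cell array, while the helper array was higher in 4 of 4 animals. Cytotoxic T cells exceeded monocytes by 0.83 ± 0.12 and B cells by 0.69 ± 0.13, and helper T cells did so by 0.56 ± 0.11 and 0.41 ± 0.12 (largest adjusted p = 0.0234). IL27RA, a chain of the IL-27 receptor, was higher than in monocytes in every lymphocyte type, by 0.82 ± 0.11 in B cells, 0.77 ± 0.11 in helper and 0.55 ± 0.11 in cytotoxic T cells (largest adjusted p = 0.00105). The IL27RA groups overlapped, since its levels moved with the animal, as described below.

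The remaining 4 chains changed little. IL17RA, the receptor chain shared by IL-17 cytokines, was higher in monocytes than in cytotoxic T cells and B cells by 0.33 ± 0.10 and 0.28 ± 0.10 (adjusted p = 0.0101 and 0.0282). Its groups overlapped through the rank 2 monocyte array, at 8.06, and against cytotoxic T cells the monocyte array was higher in 3 of 4 animals. IL17RC, IL1RL1, the receptor of IL-33, and IL5RA, the receptor chain of eosinophil growth factor IL-5, did not pass the F test, and no level of theirs exceeded 8.33 in the 18 arrays.

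Both measured interferon receptor chains were higher in monocytes than in each lymphocyte type (18.4% of all probes were). IFNAR2, a chain of the type I interferon receptor, was at 9.64, 9.89, 8.80, 9.40 and 9.18 in monocytes and between 7.83 and 8.32 in lymphocytes, and exceeded B cells, the nearest type, by 1.21 ± 0.19 (adjusted p = 9.81e-05). IFNGR1, the binding chain of the interferon gamma receptor, had monocyte levels of 11.48, 11.35, 11.22, 11.43 and 10.82 and was bright in all types. It exceeded helper T cells by 1.17 ± 0.16, cytotoxic T cells by 0.80 ± 0.17 and B cells by 0.72 ± 0.17 (largest adjusted p = 0.00318). The IFNGR1 groups overlapped, because the lymphocytes of the rank 1 and 2 animals, such as the B cells at 10.94 and 11.30, reached the monocyte range, while within every animal the monocyte array was the highest.

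TGFBR2, a kinase receptor of TGF-beta, ran the other way and was higher in T cells. In ranks 1, 2, 3 and 5 its levels were 11.64, 12.13, 11.18 and 10.86 in cytotoxic T cells and 10.98, 10.97, 9.79 and 10.45 in B cells. In ranks 1 to 5 they were 11.17, 11.93, 10.59, 11.17 and 10.68 in helper T cells and 10.32, 11.04, 9.72, 10.69 and 9.94 in monocytes. The groups overlapped, yet in each animal both T cell arrays lay above its monocyte and B cell arrays. Cytotoxic T cells exceeded monocytes by 1.16 ± 0.14 and B cells by 0.90 ± 0.14, and helper T cells did so by 0.76 ± 0.13 and 0.51 ± 0.14 (largest adjusted p = 0.0147). The second probe passed in the same 4 contrasts with differences of 0.45 to 0.63. Without the block the cytotoxic difference from B cells missed the threshold (adjusted p = 0.115).

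**Figure D4:**
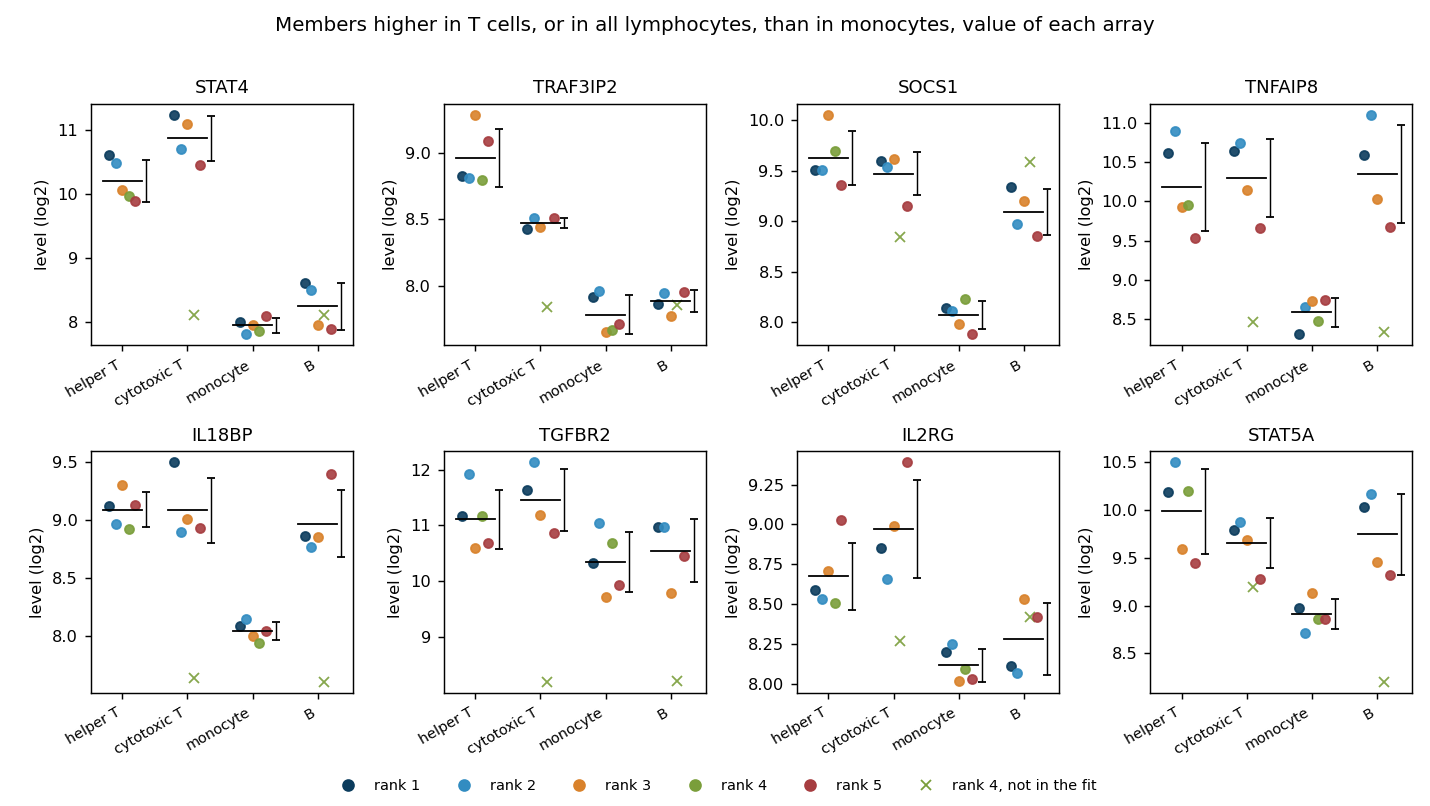
Level in log2 (vertical axes, each with its own range) of 8 members that were higher in T cells, or in all lymphocytes, than in monocytes, by cell type. Points are arrays coloured by rank, crosses the 2 arrays not in the fit, lines the means and bars the SD (n = 5 or 4). STAT4 and TRAF3IP2 are high in T cells and low in both monocytes and B cells, and TNFAIP8, IL18BP and STAT5A are low in monocytes alone.

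Behind the receptors, STAT4 separated T cells from the other types by the largest margin of the signalling members. STAT4, the transcription factor activated by IL-12 and type I interferon, was at 10.61, 10.48, 10.05, 9.97 and 9.88 in helper T cells and 11.23, 10.70, 11.08 and 10.44 in cytotoxic T cells of ranks 1, 2, 3 and 5. Monocytes lay at 8.0, 7.80, 7.95, 7.86 and 8.08, and B cells at 8.61, 8.50, 7.95 and 7.89. Cytotoxic T cells exceeded monocytes by 2.89 ± 0.15 and B cells by 2.63 ± 0.16, and helper T cells did so by 2.26 ± 0.14 and 2.00 ± 0.15 (largest adjusted p = 5.74e-07). The 6 T cell markers averaged 8.29 to 9.01 in the same B cell arrays, and their part in the B cell levels of STAT4 was not tested.

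STAT4 was also higher in cytotoxic than in helper T cells, by 0.63 ± 0.15 (adjusted p = 0.0473, 4 of 4 animals), and so was the only member that was highest in cytotoxic T cells by all 3 contrasts (0.904% of all probes were). The groups overlapped, with the helper arrays of ranks 1 and 2 above the cytotoxic array of rank 5. The difference missed the threshold without rank 1, 3, 4 or 5 (adjusted p = 0.251, 0.252, 0.0866 and 0.0875) and without the block (adjusted p = 0.113). With all 20 arrays it was -0.11 as helper minus cytotoxic T cells (adjusted p = 0.893). The 5 measured NK cell markers averaged 9.98 to 10.87 in cytotoxic and 8.24 to 9.53 in helper arrays, and their part in this difference was not tested.

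TRAF3IP2, known as Act1 and the adaptor of IL-17 receptors, was the counterpart on the helper side. It was at 8.83, 8.81, 9.29, 8.80 and 9.09 in helper T cells and 8.43, 8.51, 8.44 and 8.51 in cytotoxic T cells, with no overlap and a difference of 0.53 ± 0.10 (adjusted p = 0.0124, 4 of 4 animals). Monocytes (7.65 to 7.96) and B cells (7.77 to 7.95) lay lower, by 1.19 ± 0.09 and 1.12 ± 0.10 against helper T cells. TRAF3IP2 was the only member that was highest in helper T cells by all 3 contrasts (0.822% of all probes were). Its difference from cytotoxic T cells missed the threshold without rank 1 or rank 5 (adjusted p = 0.0828 and 0.0931). The number of members called between the 2 T cell types was 0 without rank 1 or rank 5, 1 without rank 3 or rank 4 and 2 without rank 2. It was 8 when only the 9 arrays of the 2 types were fitted, with the replicate block. No share of all probes is given for these alternative fits, so these counts cannot be set against the table.

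STAT5A and STAT3 differed less. STAT5A, activated by receptors that use IL2RG, was lower in monocytes, at 8.97, 8.71, 9.13, 8.86 and 8.86, than in all lymphocytes, by 1.08 ± 0.15 against helper T cells, 0.86 ± 0.17 against B cells and 0.77 ± 0.17 against cytotoxic T cells (largest adjusted p = 0.00144), and no lymphocyte array of the fit lay below 9.28. STAT3, activated by IL-6 and related cytokines, did not pass the F test with either probe (adjusted p = 0.485 and 0.154). The second probe alone was higher in monocytes than in cytotoxic T cells, by 0.24 ± 0.09 (adjusted p = 0.0389). Its brighter probe had means of 9.20 in helper and 9.06 in cytotoxic T cells, 9.19 in monocytes and 9.08 in B cells. JAK1, the only JAK kinase on the list, did not pass either (adjusted p = 0.569), with means of 10.60 ± 0.120 in helper and 10.82 ± 0.313 in cytotoxic T cells, 10.64 ± 0.460 in monocytes and 10.87 ± 0.237 in B cells (SD).

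Of the 4 SOCS genes, SOCS1 had a clear pattern. SOCS1, an inhibitor of JAK kinases induced by interferon gamma and interleukins, was at 9.51, 9.51, 10.05, 9.69 and 9.36 in helper T cells, 9.59, 9.53, 9.61 and 9.15 in cytotoxic T cells and 9.34, 8.97, 9.20 and 8.85 in B cells. In monocytes it was at 8.14, 8.11, 7.98, 8.23 and 7.88, below every lymphocyte array. Helper T cells exceeded monocytes by 1.56 ± 0.09, cytotoxic T cells did by 1.43 ± 0.10 and B cells by 1.05 ± 0.10, and both T cell types exceeded B cells, by 0.51 ± 0.10 and 0.38 ± 0.10 (largest adjusted p = 0.0149). SOCS3, an inhibitor of IL-6 signalling, was higher in monocytes than in cytotoxic T cells by 0.47 ± 0.16 and in B cells by 0.45 ± 0.16 (adjusted p = 0.0188 and 0.0247), with overlapping groups.

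SOCS2, a regulator of growth hormone and STAT5 signalling, varied between the monocytes of different animals. Its monocyte levels were 9.79, 9.26, 7.96, 8.62 and 7.94 in ranks 1 to 5, and the second probe had 8.84, 8.43, 7.92, 8.08 and 8.04. Ranks 1 and 2 were highest with both probes, and ranks 3 and 5 lay in the lymphocyte range. Neither probe passed the F test (adjusted p = 0.078 and 0.137), although the brighter one was higher in monocytes than in B cells by 0.86 ± 0.31 (adjusted p = 0.0307) and the second than in cytotoxic T cells by 0.36 ± 0.14 (adjusted p = 0.0414). SOCS5 was flat, with all 18 levels between 7.93 and 8.32.

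TRAF adaptors and TNFAIP8 lay mostly on the lymphocyte side. TNFAIP8, a TNF-induced regulator of cell death, was at 10.62, 10.89, 9.93, 9.95 and 9.53 in helper T cells, 10.64, 10.74, 10.14 and 9.66 in cytotoxic T cells and 10.59, 11.10, 10.03 and 9.68 in B cells, against 8.31, 8.66, 8.74, 8.48 and 8.75 in monocytes. Monocytes lay below every lymphocyte array, by 1.59 ± 0.20, 1.66 ± 0.21 and 1.72 ± 0.21 log2 (largest adjusted p = 1.84e-05). TRAF3IP3, an adaptor of T cell development, was lower in monocytes too, by 1.30 ± 0.16, 1.36 ± 0.17 and 0.73 ± 0.17 against helper T cells, cytotoxic T cells and B cells, and TRAF6, the adaptor of IL-1 and Toll-like receptors, by 0.26 ± 0.07, 0.27 ± 0.07 and 0.22 ± 0.07 (largest adjusted p = 0.0217 for either gene).

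TRAF7 was the exception among the adaptors. At 8.93, 9.03, 9.16, 8.80 and 8.96 in monocytes, it exceeded every lymphocyte array (8.24 to 8.56), and the difference was 0.53 ± 0.06 from B cells, 0.62 ± 0.06 from helper and 0.70 ± 0.06 from cytotoxic T cells (largest adjusted p = 8.92e-06). TRAF5 did not pass the F test (adjusted p = 0.176), with all levels between 7.61 and 7.83. In all, 8 members were lower in monocytes than in each lymphocyte type (17.0%, background 22.5%): IL18BP, IL27RA, SOCS1, STAT5A, TNFAIP8, TNFRSF18, TRAF3IP3 and TRAF6. The F test called none of 13 genes, of which 10 had a mean under the median of the table: IL16, IL25, IL17RC, IL1RL1, IL5RA, TNFRSF10A, TNFRSF11A, TNFRSF19, TRAF5, STAT3, JAK1, SOCS2 and SOCS5.

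Genes of the same pathways under other symbols were read from 4 lists of names. Of 26 further cytokine, TNF family and growth factor receptor genes 9 were measured, and 4 of them were higher in monocytes and 4 in B cells when those types were compared (of all probes, 22.8% and 30.8%). On the monocyte side were CSF3R and CSF1R, receptors of myeloid growth factors, OSM, an IL-6 family cytokine, and CSF2RB, with differences from B cells of 4.85 ± 0.20, 3.42 ± 0.34, 3.13 ± 0.20 and 0.33 ± 0.06. CSF1R is also among the monocyte markers above and CSF3R among the granulocyte markers, so their calls repeat the marker levels. On the B cell side were CD40, the co-stimulatory TNF receptor of B cells, at 1.86 ± 0.10, CD70 at 1.08 ± 0.11, LTA at 0.65 ± 0.07 and LTB at 2.63 ± 0.49 (largest adjusted p of the 8 = 0.000522). LTA and LTB did not pass between B cells and either T cell type. Their means were 8.57 and 13.67 in helper T cells, 8.37 and 12.63 in cytotoxic T cells and 8.55 and 12.30 in B cells. CD40 exceeded each other type by at least 1 log2, and is a TNF receptor outside the naming rule of the module.

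Of 37 genes of NF-kB and TNF receptor signalling 22 were measured. Between monocytes and B cells 2 were higher in monocytes and 9 in B cells (22.8% and 30.8% of all probes), with a median of -0.16 log2 against -0.01 over all probes. Against monocytes 8 were higher in helper T cells and 5 in monocytes (34% and 27.5% of all probes), and for cytotoxic T cells these counts were 7 and 5 (32.8% and 26.5%). RIPK2, a kinase behind NOD receptors, was higher in monocytes than in B cells by 0.94 ± 0.17, and CASP8, the apical caspase of death receptors, was higher in B cells by 0.76 ± 0.19. Of 19 genes of the JAK and STAT pathway 11 were measured, with 1 higher in monocytes and 6 in B cells (22.8% and 30.8% of all probes). Against monocytes 5 were higher in helper T cells and 3 in monocytes (34% and 27.5% of all probes). For cytotoxic T cells these counts were 5 and 2 (32.8% and 26.5%). PTPN6, the phosphatase SHP-1, exceeded each other type in B cells, by 1.02 ± 0.20 against monocytes. Of 23 TGF-beta pathway genes 10 were measured, with 3 higher in monocytes and 2 in B cells (22.8% and 30.8% of all probes). Against monocytes 4 were higher in helper T cells and 2 in monocytes (34% and 27.5% of all probes). For cytotoxic T cells these counts were 2 and 3 (32.8% and 26.5%).

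The same gene could differ as much between animals as between cell types. An F test of the animal term in the same model, chosen after the values were seen, called 10 of 47 member probes (21.3%), against 33.5% of all probes. TRAF3IP3 had the widest spread of the brighter probes. Its levels in ranks 1 to 5 were 8.60, 8.49, 10.11, 8.64 and 10.66 in helper T cells and 7.73, 7.70, 8.46, 7.62 and 8.51 in monocytes. In ranks 1, 2, 3 and 5 they were 8.82, 8.59, 10.04 and 10.52 in cytotoxic T cells and 8.19, 7.96, 9.50 and 9.78 in B cells. The animals of ranks 3 and 5 were highest in all 4 types, and the fitted animal terms spanned 1.68 log2 (adjusted p = 2.48e-05), more than the 1.49 between the cell type means.

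By the fitted animal terms, ranks 3 and 5 were also highest for IL27RA and TNFSF12. They were lowest for IFNGR1, TRAF6 and both TGFBR2 probes. The order of the other animals was not the same in all of these genes. IL27RA was at 9.96 and 9.75 in the helper T cells of ranks 3 and 5 against 9.41, 8.76 and 9.45 in those of ranks 1, 2 and 4, and its animal terms spanned 1.21 (adjusted p = 2.52e-05). IFNGR1 was at 9.50 and 9.65 in the helper T cells of ranks 3 and 5 against 10.45, 10.84 and 10.02, with a span of 1.14 (adjusted p = 0.000614). The second probe of TGFBR2 had the widest span of all member probes, 1.84 (adjusted p = 7.91e-06). It was at 8.62, 8.64, 8.23 and 8.18 in the 4 types of the rank 3 animal and nowhere else below 9.33, while the brighter TGFBR2 probe spanned 1.20.

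Most probes of the table that differed between animals also set ranks 3 and 5 apart. Ranks 3 and 5 were both above or both below the other 3 animals in 7 of the 10 member probes that differed between animals, and in 77.5% of the 2443 probes of the table that did. Haemoglobin transcripts also set these 2 animals apart: HBA1 was at 12.46, 12.39, 10.28, 11.24 and 10.17 in the helper T cells of ranks 1 to 5, and its part in these results was not tested.

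**Figure D5:**
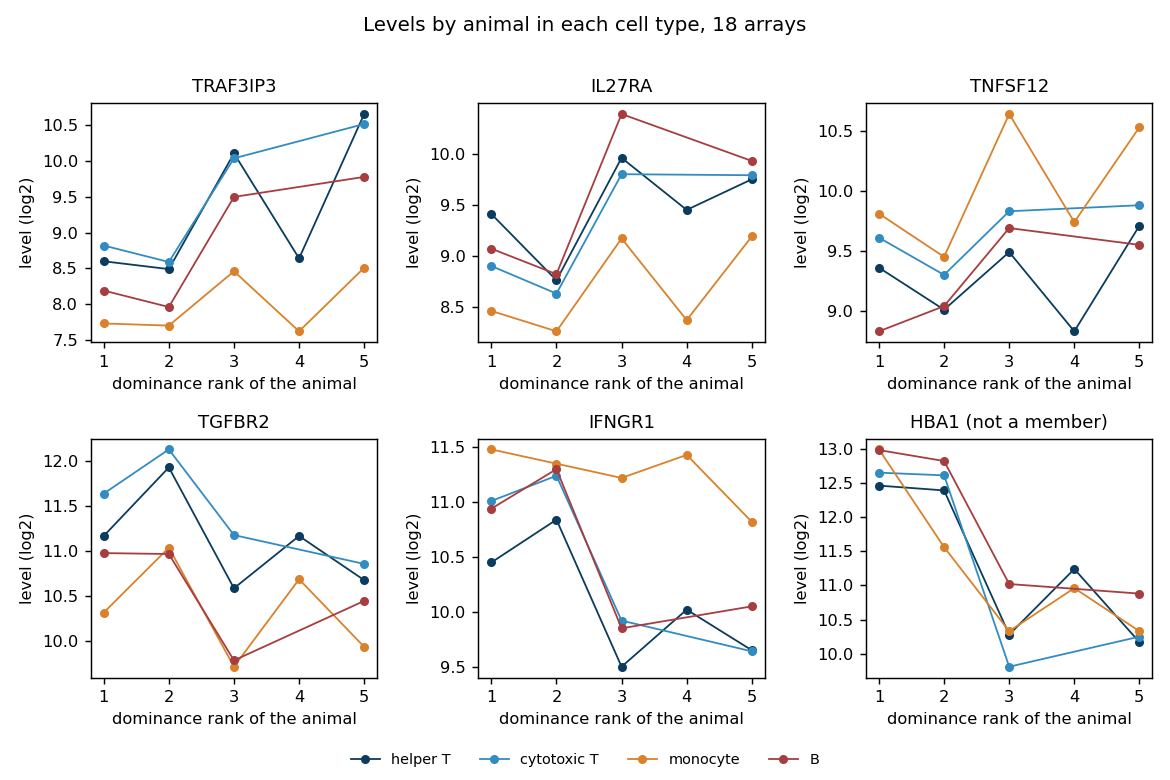
Level in log2 (vertical axes, each with its own range) of 5 members and of the haemoglobin gene HBA1 against the dominance rank of the animal, with 1 line per cell type over the 18 arrays. TRAF3IP3, IL27RA and TNFSF12 peak at ranks 3 and 5 in most types, IFNGR1 and TGFBR2 are lower there, and no line of these 5 members rises or falls at every step.

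No member followed dominance rank past the threshold. A slope of the level on rank, fitted in each cell type with limma, gave 0 calls of 47 in all 4 types (background 0% in each). At an unadjusted p under 0.05 there were 2 member probes in helper T cells (4.26%, background 5.57%), 6 in cytotoxic T cells (12.8%, background 12.6%), 4 in monocytes (8.51%, background 6.45%) and 5 in B cells (10.6%, background 9.86%), all near the shares of the table. The member with the smallest unadjusted p was STAT4 in helper T cells, whose 5 levels given above fall at every step from rank 1 to rank 5. Its slope was -0.20 ± 0.04 log2 per step (adjusted p = 0.77). In B cells the 4 STAT4 levels fall at every step too, with a slope of -0.19 ± 0.06 (adjusted p = 0.491). The test of slopes that differ between cell types called 0 members at an adjusted p under 0.05 (background 0.0274%) and 6 at an unadjusted p under 0.05 (background 9.49%). TNFAIP8 had the smallest unadjusted p of them, with an adjusted p = 0.293.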

How the data were processed

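Expression was measured in 4 blood cell types of 5 rhesus macaques on 20 Illumina arrays. The deposited values, on a log scale used here as log2, were made by the authors with the R package lumi, per the submitters' processing notes. The base of the logarithm, whether the scale is lumi's variance-stabilised one, the steps, the probe filter and the sorting gate are not stated in the labels or headers. The 2 deposited tables are identical, although 1 is named as not normalized, and the sorted columns differ by at most 0.000913. Detection p-values were not used here, so low levels have no detection call, and the number of arrays limits the precision.

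Probes were named through the platform annotation. All 43 member symbols occur in the RefSeq macaque gene table. Human probes may match macaque transcripts unequally, so each probe was compared only with itself.

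With limma 3.58.1 in R 4.3.3, all 7303 probes were fitted on 18 arrays with the animal as a block. Arrays of 1 animal are tied by the titles. Their deviations from the cell type means correlated at 0.238 to 0.809 in 25 pairs (median 0.478). For 96 pairs of different animals and types the range was -0.707 to 0.531 (median -0.248), so the ranges overlapped. Probes were called at a two-sided adjusted p under 0.05. The fits were tested on simulated data. Alternatives were all 20 arrays, leaving out each animal, no block, no dim probes, a variance trend, cyclic loess, fits of 2 types and counts by gene.

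Genes given by array were the up to 6 most enriched per type, the up to 3 largest in each direction of a contrast with 1 sign in every animal, and the widest and narrowest of each role. Other members given by array were chosen after their values were seen. The members and lists were chosen with earlier results of these data known.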

Additional observations from a re-analysis of the deposited data

Results flagged for a closer look

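Among the 23 genes picked by the size of their differences or by the spread of their cell type means, 92 groups of 4 or 5 arrays were examined for an array far from the others of its group by Dixon's ratio, and 2 had one. Chance flags about 1 in 20 groups. IL18BP was at 9.40 in the B cells of the rank 5 animal, against 8.77 to 8.86 in the B cells of the other 3. TNFRSF11A was at 7.81 in the helper T cells of the rank 1 animal, against 7.85 to 7.87 in the other 4.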

How the results depend on the processing

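With all 20 arrays the calls were 1 between helper and cytotoxic T cells (2 with 18 arrays), 3 between helper T cells and B cells (10), 20 between cytotoxic T cells and monocytes (32), 2 between cytotoxic T cells and B cells (10) and 4 between animals (10). The animal, used as the replicate block, is shared by design, and with no replicate block the calls were 1 between helper and cytotoxic T cells, 6 between helper T cells and B cells and 5 between cytotoxic T cells and B cells. The fit of only the 2 types, with the replicate block, gave 8 between helper and cytotoxic T cells. Leaving out 1 animal in turn gave 0 to 2 calls between helper and cytotoxic T cells and 5 to 10 between helper T cells and B cells. The lowest count was 5 without rank 2, and it was 6 without rank 1 or rank 3. Shares over all probes are not given for these alternative fits. Beyond the arrays left out, the cause was not tested. Apart from these values, the numbers of probes called per contrast, by the F test, as enriched, by rank and between animals stayed within 1.5 times under the alternatives run, and those of 0 stayed at 0. The single members highest or lowest in 1 lymphocyte type (STAT4, TRAF3IP2 and TNFRSF1A) and the single one higher in B cells than in cytotoxic T cells (TNFSF9) lost that place wherever the call given for them in the report was lost. Of the comparisons of 49 gene results with their alternatives, 484 kept their side of the threshold, 25 lost it, 3 gained it and 0 reversed. A filter on dim probes removed 17 member probes before the test, so their results were not assessed under it. TNFSF10, IL10, TNFRSF18, TNFSF13, TNFSF14, TNFSF9 and IL23A were among the dimmest members. Their means over the 18 arrays were 7.68 to 8.09, where the lowest value of the table was 7.50 and the lower quartile 8.04.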

Other observations

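The 2 rank 4 arrays left out of the fit, labelled cytotoxic T cells and B cells, gave members values outside the range of the other 18 arrays. Both arrays lay above all 18 in 11 member probes (23.4%, against 30% of all probes), of which TNFRSF11A exceeded the highest of the 18 only beyond the second decimal in the B cell array, and below all 18 in 8 (17.0%, against 23.5%). IL5RA was at 10.06 and 10.11 in them and at most 8.29 elsewhere. TNFSF13B was at 10.26 and 10.45, against at most 8.75, and TNFSF9 at 10.16 and 9.50, against at most 8.54. In the other direction, JAK1 was at 7.99 and 8.07 and at least 10.06 elsewhere, and IFNGR1 at 7.82 and 7.66, against at least 9.50. These genes were chosen after their values were seen.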
